A study of Mus musculus with 18 samples.

Results

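Guanylin (Guca2a) and uroguanylin (Guca2b), their receptor guanylyl cyclase C (Gucy2c), the cGMP-dependent protein kinase II (Prkg2), the cGMP phosphodiesterase Pde5a and the cyclic nucleotide exporter Abcc4 were followed in organoids of the mouse colon, that is, cultures of gut epithelium. These 6 genes were picked by symbol from the 56748 genes of an expression table. Bulk RNA sequencing of poly-A RNA covered 18 libraries in 6 groups of 3: distal, mid and proximal colon organoids, each in a differentiation medium or in the proliferative control medium, ENR with Wnt3a CM, applied 3 days after passaging. The strain, age and number of mice behind the organoids are not given in the sources used here, nor is what the replicate numbers stand for, so the p-values measure only the spread between these samples, which may be technical. Levels are in FPKM, fragment counts scaled to gene length and to a library size, which allows comparison between genes of different length. The library size behind the FPKM differed from the summed reads by medium, as given under the processing. The condition for testing, 3 or more libraries with an FPKM of 1 or higher, was met by 12896 genes and by all 6 followed here.

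Guanylin and uroguanylin are small peptides that intestinal epithelial cells secrete into the lumen. Both bind guanylyl cyclase C on the apical membrane, the receptor that heat-stable enterotoxins of diarrhoeal bacteria also use, and the receptor then makes cGMP. Prkg2, anchored at the membrane, phosphorylates the chloride channel Cftr and restrains the sodium/proton exchanger Slc9a3, so that salt and water move to the lumen; Pde5a breaks cGMP down, and Abcc4 carries cyclic nucleotides out of the cell. In the rodent gut guanylin is known chiefly from the colon and uroguanylin from the small intestine.

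The ligand genes are neighbours on chromosome 4. In the table, which is on mm39, Guca2a (ENSMUSG00000023247) lies at chr4:119494901-119496668 on the plus strand and Guca2b (ENSMUSG00000032978) at chr4:119513804-119516151 on the minus strand, so their 3' ends face each other across 17135 bases that hold 0 other genes of the table. The last 15 codons and the stop codon of each reading frame, from GENCODE transcripts on GRCm38, hold the active peptides and are shown because they set the members apart while keeping the cysteines. Capitals mark cysteine codons, whose residues form the disulfide bonds of these peptides.
Guca2a: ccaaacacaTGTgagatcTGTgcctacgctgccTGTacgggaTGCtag
Guca2b: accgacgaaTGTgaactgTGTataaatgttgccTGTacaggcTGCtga
Of the 48 bases 30 were identical, 8 of the 15 codons stood for the same residue, and all 4 cysteine codons fell at the same place.

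The promoters of the ligand genes are shown because the genes responded differently to the medium, as given further on. RefSeq promoter windows of GRCm38.p6, 250 bases before to 50 after a start, were at hand for 4 of the 6 genes, and were searched on both strands for ATAAA (a core read by Cdx factors), CAAAGT (part of an Hnf4 site), TATAAA, which contains ATAAA, and the AT-rich motif GTTAAT. Capitals mark a match. The Guca2a window is chr4:119637482-119637781 on the plus strand, and the Guca2b window is chr4:119658896-119659195 on the minus strand.
Guca2a: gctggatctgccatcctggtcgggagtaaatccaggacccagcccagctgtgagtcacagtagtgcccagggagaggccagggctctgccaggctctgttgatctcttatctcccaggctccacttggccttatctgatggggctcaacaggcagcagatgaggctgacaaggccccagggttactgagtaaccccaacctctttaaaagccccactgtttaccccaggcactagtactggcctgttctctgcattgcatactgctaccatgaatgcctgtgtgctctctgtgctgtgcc
Guca2b: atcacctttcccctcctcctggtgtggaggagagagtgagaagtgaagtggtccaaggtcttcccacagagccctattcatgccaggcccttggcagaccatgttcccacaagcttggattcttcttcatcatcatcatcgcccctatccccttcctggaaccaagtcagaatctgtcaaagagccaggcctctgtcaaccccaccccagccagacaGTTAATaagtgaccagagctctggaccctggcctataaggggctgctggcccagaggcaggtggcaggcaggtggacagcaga
The Guca2a window held 0 matches, and the Guca2b window held GTTAAT once, its first base at position -33 from the start. The window of Pde5a held ATAAA at position -13, and those of the 2 Abcc4 promoters held CAAAGT at -228 and ATAAA at -229. Among all 32851 promoter windows, 7.10% held GTTAAT, 40.0% ATAAA, 14.4% CAAAGT and 13.6% TATAAA, so a match is a description of the letters and no more.

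Tests were made with limma on log2(FPKM + 1) in a single fit of all 18 libraries, and a gene was called where its adjusted p (Benjamini-Hochberg over all 12896 genes) was under 0.05. In distal organoids 3 of the 6 genes rose in differentiation medium and 2 fell, against 31.6% and 31.3% of all tested genes. In mid organoids 3 rose and 1 fell, against 31.5% and 32.0% of all genes. In proximal organoids 5 rose and 1 fell, against 27.6% and 26.2%. These backgrounds depend on the scaling: 4074 genes rose and 4036 fell in distal, 4065 and 4122 in mid, and 3565 and 3373 in proximal organoids, but with each library scaled to its summed reads 2396 rose and 6105 fell in distal, 2470 and 6004 in mid, and 2383 and 5176 in proximal organoids. With 6 genes and backgrounds this wide, the counts alone do not set the genes apart, and the results are therefore given gene by gene. The change in response between regions was called for 2 of the 6 genes, Guca2b and Prkg2, both for distal minus proximal (8.24% of all genes) and for mid minus proximal (12%), and in the F test over the 3 regions (9.59%). For distal minus mid it was called for 0 of the 6 and for 4 genes in all (0.0310%); of the 6, Prkg2 alone had an unadjusted p under 0.05 there, at 0.0125.

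**Figure D1:**
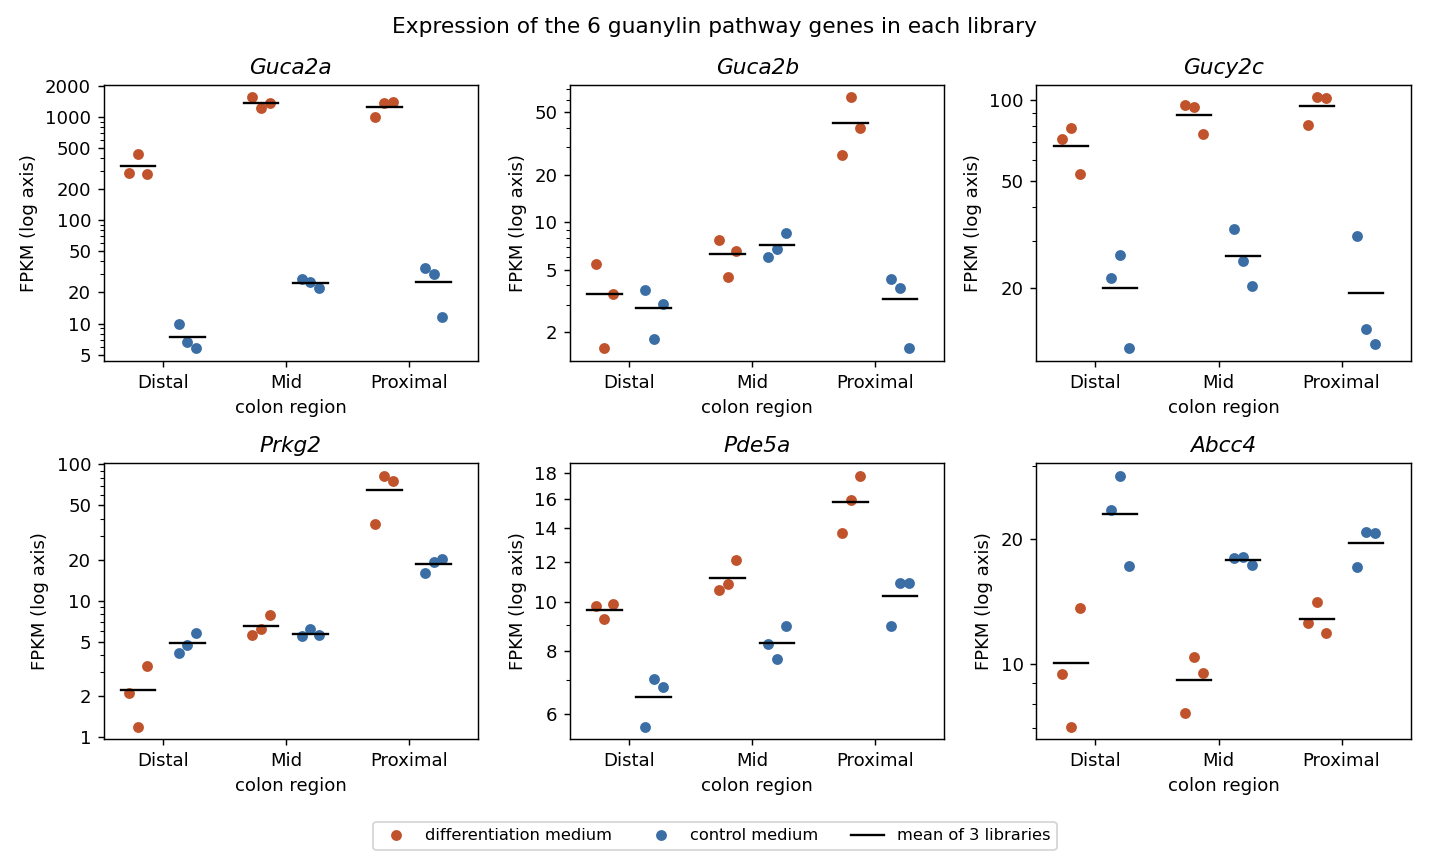
FPKM on a log axis for each of the 6 genes, by colon region, with differentiation libraries left of control libraries; points are libraries and bars are means of 3. Guca2a and Gucy2c are higher in differentiation medium in every region with no overlap, Guca2b stands high in proximal differentiation libraries (26.9 to 62.2 FPKM), and Prkg2 is highest there and lowest in distal differentiation libraries.

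Guca2a was the most abundant of the 6 genes in differentiation medium and rose in all 3 regions. In distal organoids it had 289, 436 and 277 FPKM in differentiation medium and 9.95, 6.68 and 5.74 FPKM in control medium. In mid organoids the values were 1541, 1207 and 1356 FPKM in differentiation medium and 27.2, 25.4 and 22.3 FPKM in control medium. In proximal organoids they were 990.1, 1367 and 1391 FPKM in differentiation medium and 34.4, 30.5 and 11.6 FPKM in control medium. Every differentiation library of a region lay above every control library. The ratio of group means was 44.8 in distal, 54.8 in mid and 49.0 in proximal organoids. On the log2(FPKM + 1) scale the difference was 5.31 ± 0.31 in distal (SE; adjusted p = 6.75e-09), 5.72 ± 0.31 in mid (2.7e-09) and 5.68 ± 0.31 in proximal organoids (9.55e-09). The responses of the regions differed by less than their error: distal minus proximal was -0.37 ± 0.44 (adjusted p = 0.667) and the F test gave an adjusted p of 0.809.

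The level of Guca2a itself was lower in distal organoids in both media. In differentiation medium it averaged 334 ± 88.2 FPKM in distal, 1368 ± 167 in mid and 1249.6 ± 225 in proximal organoids (SD, n = 3 each). In control medium the averages were 7.46 ± 2.21 FPKM in distal, 25.0 ± 2.46 in mid and 25.5 ± 12.2 in proximal organoids. Mid and proximal libraries overlapped in each medium, and distal libraries lay below both. The distal minus proximal difference was -1.91 ± 0.31 in differentiation medium (adjusted p = 0.000275) and -1.54 ± 0.31 in control medium (adjusted p = 0.00406). Distal minus mid was -2.05 ± 0.31 in differentiation medium (adjusted p = 0.00392) and -1.65 ± 0.31 in control medium (adjusted p = 0.0364). The last call is weak: leaving out a single library gave an adjusted p between 0.00251 and 0.179, and 9 of the 18 such fits lost it. With only the groups compared in the fit, distal against mid was lost in differentiation (adjusted p = 0.0765) and control medium (0.125), as was distal against proximal in control medium (0.0962).

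Guca2b responded in proximal organoids, and the other regions differed from that response. In distal organoids it had 5.45, 1.60 and 3.49 FPKM in differentiation medium and 3.74, 1.81 and 3.02 FPKM in control medium. In mid organoids it had 7.76, 4.47 and 6.55 FPKM in differentiation medium and 6.05, 6.81 and 8.60 FPKM in control medium. In proximal organoids it had 26.9, 62.2 and 39.7 FPKM in differentiation medium and 4.36, 3.83 and 1.58 FPKM in control medium. The media overlapped in distal and mid organoids and were apart in proximal ones, where the ratio of means was 13.2. The difference on the log2 scale was 0.16 ± 0.36 in distal (adjusted p = 0.71), -0.18 ± 0.36 in mid (0.68) and 3.36 ± 0.36 in proximal organoids (3.8e-06). The test of the change itself gave -3.19 ± 0.51 for distal minus proximal (adjusted p = 0.00113) and -3.54 ± 0.51 for mid minus proximal (adjusted p = 0.000444). The values rested on 23 to 66 recovered reads each in distal libraries, 23 to 72 in proximal control and 388 to 678 in proximal differentiation libraries. Counting error is therefore a larger part of the distal and the proximal control values.

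Between regions, Guca2b in differentiation medium averaged 3.51 ± 1.92 FPKM in distal, 6.26 ± 1.67 in mid and 42.9 ± 17.9 in proximal organoids (SD, n = 3 each). Distal minus proximal was -3.30 ± 0.36 (adjusted p = 6.04e-06) and mid minus proximal -2.54 ± 0.36 (adjusted p = 8.3e-05). In control medium the averages were 2.86 ± 0.972 FPKM in distal, 7.15 ± 1.31 in mid and 3.26 ± 1.48 in proximal organoids, and no region pair was called. Mid control libraries (6.05 to 8.60 FPKM) lay above proximal control libraries (1.58 to 4.36), a difference of 0.99 ± 0.36 (adjusted p = 0.0826). Ordered by mean, proximal differentiation stood first and apart, and each later neighbour in the order overlapped the one before it, from mid control down to distal control.

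The balance of the ligand genes moved with the medium. The ratio of Guca2a to Guca2b FPKM was 53.1, 273 and 79.3 in distal differentiation libraries and 2.66, 3.68 and 1.90 in distal control libraries. It was 199, 270.1 and 207 in mid differentiation libraries and 4.50, 3.72 and 2.60 in mid control libraries. In proximal organoids it was 36.8, 22.0 and 35.0 in differentiation medium and 7.89, 7.95 and 7.32 in control medium. Guca2a was therefore the more abundant ligand gene in all 18 libraries. As a difference of log2(FPKM + 1), the ratio was 4.46 higher in differentiation than in control medium (exact two-sided permutation of media within regions, p = 0.00025, the smallest that 8000 relabellings can give).

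The regional order of this balance turned between media. Distal minus proximal was 1.38 in differentiation medium and -1.44 in control medium, with no overlap between the libraries in either (exact permutation p = 0.10 each, the smallest that 3 against 3 allows). Over both media together the difference was -0.03 (exact permutation, p = 0.955), a mean of opposite signs that cannot test such a change.

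**Figure D2:**
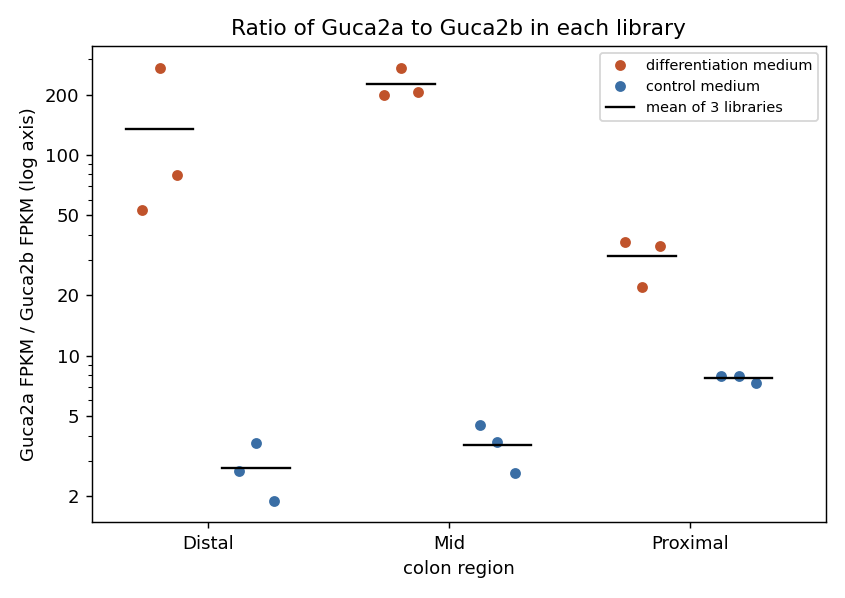
Guca2a FPKM divided by Guca2b FPKM in each library on a log axis, with differentiation left of control in each region and the mean as a bar. Differentiation libraries span 22.0 to 273 and control libraries 1.90 to 7.95; within differentiation medium the mid libraries lie well above the proximal ones, and within control medium the proximal libraries lie highest.

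The receptor gene Gucy2c (ENSMUSG00000042638, chr6:136674282-136758763, minus strand) rose in every region. In distal organoids it had 71.5, 78.8 and 53.3 FPKM in differentiation medium and 21.9, 26.5 and 11.9 FPKM in control medium. In mid organoids it had 96.0, 94.3 and 74.9 FPKM in differentiation medium and 33.3, 25.3 and 20.3 FPKM in control medium. In proximal organoids it had 81.2, 102 and 102 FPKM in differentiation medium and 31.2, 14.1 and 12.4 FPKM in control medium. All differentiation libraries lay above all control libraries. The regions overlapped in control medium; in differentiation medium mid libraries overlapped both other regions, while every distal library (53.3 to 78.8 FPKM) lay below every proximal one (81.2 to 102). The log2 difference was 1.76 ± 0.31 in distal (adjusted p = 0.00019), 1.73 ± 0.31 in mid (0.000207) and 2.36 ± 0.31 in proximal organoids (2.71e-05). No pair of regions was called for Gucy2c in either medium; distal minus proximal was -0.49 ± 0.31 in differentiation medium (adjusted p = 0.261) and 0.11 ± 0.31 in control medium (0.89). Without proximal control replicate 1, mid minus proximal in control medium was called (0.91, adjusted p = 0.0381), against 0.52 with all libraries (adjusted p = 0.314). The receptor thus had a ratio of means of 3.37 in distal, 3.36 in mid and 4.96 in proximal organoids, a smaller ratio than that of Guca2a in each region.

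Prkg2 (ENSMUSG00000029334, chr5:99077632-99185210, minus strand), the kinase that reads the cGMP signal at the membrane, was highest in proximal organoids in both media, and its response changed sign between regions. In distal organoids it had 2.09, 1.18 and 3.33 FPKM in differentiation medium and 4.15, 4.75 and 5.74 FPKM in control medium. In mid organoids it had 5.55, 6.13 and 7.89 FPKM in differentiation medium and 5.45, 6.14 and 5.55 FPKM in control medium. In proximal organoids it had 36.3, 82.5 and 75.6 FPKM in differentiation medium and 15.9, 19.3 and 20.2 FPKM in control medium. The media did not overlap in distal organoids, where differentiation was lower, nor in proximal organoids, where it was higher; in mid organoids they did. The log2 difference was -0.92 ± 0.27 in distal (adjusted p = 0.00747), 0.15 ± 0.27 in mid (0.638) and 1.68 ± 0.27 in proximal organoids (0.000131). The change in response was -2.60 ± 0.38 for distal minus proximal (adjusted p = 0.000574) and -1.52 ± 0.38 for mid minus proximal (adjusted p = 0.0175). Prkg2 and Guca2b had their lowest proximal differentiation value in replicate 1, as did Guca2a, Gucy2c and Pde5a. Without that library the proximal response was 2.05 ± 0.22 for Prkg2 (adjusted p = 3.58e-06) and 3.64 ± 0.38 for Guca2b (adjusted p = 2.64e-06). The lowest proximal response with a library left out was 1.46 for Prkg2, without proximal differentiation replicate 2. For Guca2b it was 3.03, without proximal control replicate 3.

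The regional step in Prkg2 was present in control medium too. It averaged 4.88 ± 0.804 FPKM in distal, 5.71 ± 0.372 in mid and 18.5 ± 2.27 in proximal control libraries (SD, n = 3 each), with a distal minus proximal difference of -1.73 ± 0.27 (adjusted p = 0.000427) and a mid minus proximal difference of -1.53 ± 0.27 (adjusted p = 0.00128). In differentiation medium it averaged 2.20 ± 1.08 FPKM in distal, 6.52 ± 1.22 in mid and 64.8 ± 24.9 in proximal libraries, with a distal minus proximal difference of -4.33 ± 0.27 (adjusted p = 1.02e-08) and a mid minus proximal difference of -3.06 ± 0.27 (adjusted p = 6.11e-07). Distal lay below mid in differentiation medium, with a difference of -1.28 ± 0.27 (adjusted p = 0.0392), a call that 13 of the 18 fits with a library left out did not keep (adjusted p 0.00555 to 0.16). From the highest mean, proximal differentiation and proximal control stood apart from all other groups, mid differentiation, mid control and distal control overlapped in turn, and distal differentiation was lowest. Prkg1, the other cGMP-dependent kinase, was at 0 in 16 of the 18 libraries and averaged at most 0.00379 FPKM in any group.

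**Figure D3:**
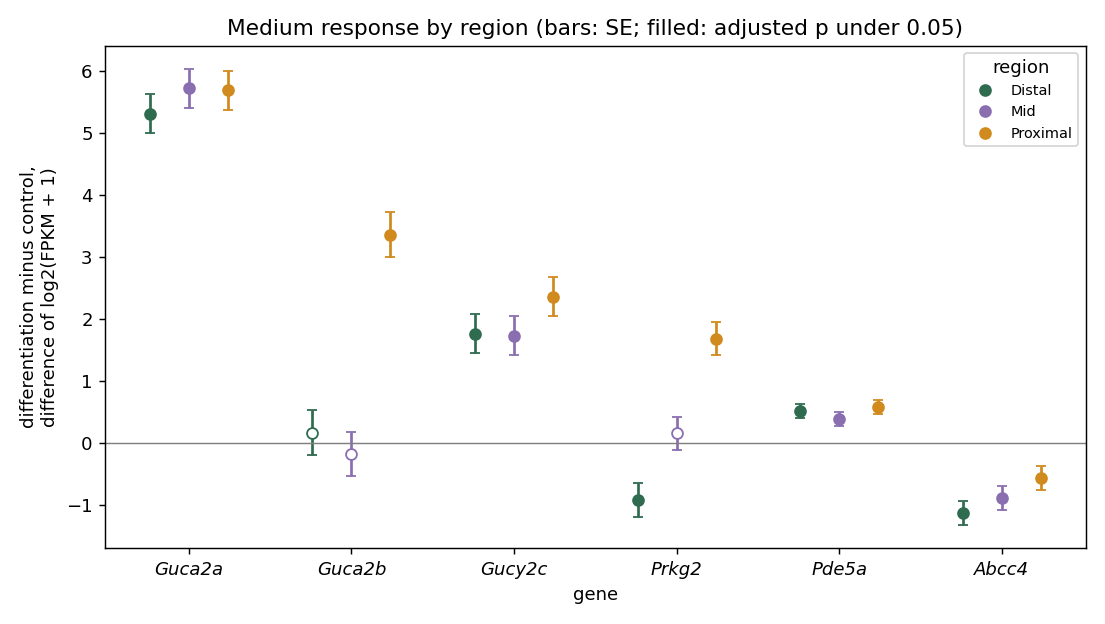
Differentiation minus control medium for each gene and region, as a difference of log2(FPKM + 1); bars are SE of the fit and filled points have an adjusted p under 0.05. Guca2a and Gucy2c lie above 0 in every region, Guca2b lies above 0 by call in proximal organoids, Prkg2 runs from -0.92 in distal to 1.68 in proximal organoids, and Abcc4 lies below 0 throughout.

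Pde5a (ENSMUSG00000053965, chr3:122522596-122653023, plus strand), which hydrolyses cGMP, was slightly higher in differentiation medium. In distal organoids it had 9.81, 9.27 and 9.89 FPKM in differentiation medium and 5.67, 7.04 and 6.78 FPKM in control medium. In mid organoids it had 10.6, 10.8 and 12.1 FPKM in differentiation medium and 8.25, 7.72 and 8.96 FPKM in control medium. In proximal organoids it had 13.7, 15.9 and 17.8 FPKM in differentiation medium and 8.96, 10.9 and 10.9 FPKM in control medium. The media did not overlap within any region. The log2 difference was 0.51 ± 0.11 in distal (adjusted p = 0.00093), 0.39 ± 0.11 in mid (0.00667) and 0.57 ± 0.11 in proximal organoids (0.000556). Scaled to the summed reads of each library, which moved the median of all genes to -0.34 in distal, -0.33 in mid and -0.25 in proximal organoids, Pde5a gave 0.11 in distal (adjusted p = 0.41), -0.01 in mid (adjusted p = 0.963) and 0.28 in proximal organoids (adjusted p = 0.0412). Distal lay below proximal, with a difference of -0.65 ± 0.11 in differentiation medium (adjusted p = 0.000402) and -0.59 ± 0.11 in control medium (adjusted p = 0.00234), and mid minus proximal was -0.46 ± 0.11 in differentiation medium (adjusted p = 0.0056). Pde5a is best known from smooth muscle; the 7 smooth muscle and pericyte markers summed to 0.284 to 0.930 FPKM in the 18 libraries, and their part in the Pde5a values was not tested.

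Abcc4 (ENSMUSG00000032849, chr14:118720104-118943631, minus strand), an exporter of cyclic nucleotides, was lower in differentiation medium in all 3 regions. In distal organoids it had 9.45, 7.05 and 13.6 FPKM in differentiation medium and 23.5, 28.4 and 17.2 FPKM in control medium. In mid organoids it had 7.60, 10.4 and 9.48 FPKM in differentiation medium and 17.99, 18.1 and 17.3 FPKM in control medium. In proximal organoids it had 12.5, 14.1 and 11.9 FPKM in differentiation medium and 17.1, 20.8 and 20.6 FPKM in control medium. The media did not overlap in any region. The log2 difference was -1.14 ± 0.20 in distal (adjusted p = 0.000137), -0.90 ± 0.20 in mid (0.000948) and -0.57 ± 0.20 in proximal organoids (0.0231). In proximal organoids the fall no longer passed when any of 3 libraries was left out: differentiation replicate 3 (adjusted p = 0.0755), control replicate 2 (0.0711) or control replicate 3 (0.0671). No pair of regions was called for Abcc4; distal minus proximal was -0.36 ± 0.20 in differentiation medium (adjusted p = 0.181) and 0.21 ± 0.20 in control medium (0.597). Without distal differentiation replicate 3, the highest distal value in that medium, the first was -0.59 (adjusted p = 0.024).

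Counted over region pairs in differentiation medium, 4 of the 6 genes were called between distal and proximal organoids (29.9% of all genes), 3 between mid and proximal (29.4%) and 2 between distal and mid (0.690%), and each called gene was lower in the region named first. In control medium 3 were called between distal and proximal (10.5%), 1 between mid and proximal (13.3%) and 1 between distal and mid (0.326%), again all lower in the region named first.

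Marker sums of differentiated cells were higher in differentiation than in control libraries. The 8 colonocyte markers summed to 15230 to 26370 FPKM in differentiation libraries and 297 to 2188 FPKM in control libraries. The 8 goblet markers summed to 1067 to 3783 FPKM in differentiation and 67.9 to 524 FPKM in control libraries, and the 4 crypt stem markers to 0.132 to 3.95 FPKM in differentiation and 26.1 to 37.8 FPKM in control libraries. Guca2a is known from both colonocytes and goblet cells, and in bulk RNA fewer cells of a type and less RNA per cell cannot be told apart. In differentiation medium the colonocyte sums of distal (20800 to 26050 FPKM) and mid libraries (22950 to 26370) overlapped those of proximal libraries (15230 to 26270), but single markers differed. Car1, a carbonic anhydrase that made up most of the sum, averaged 12770 FPKM in distal, 13420 in mid and 18980 in proximal libraries, and Krt20, a keratin of differentiated epithelium, 656, 758 and 696 FPKM. The water channel Aqp8 averaged 4090 ± 2012, 3078 ± 955 and 0.400 ± 0.208 FPKM in distal, mid and proximal libraries, the carbonic anhydrase Car4 235 ± 65.2, 347 ± 102 and 0.994 ± 0.625 FPKM, and the carboxylesterase Ces2a 889 ± 205, 804 ± 177 and 96.7 ± 21.9 FPKM. In the same libraries goblet sums were 1813 to 2395 FPKM in distal, 2264 to 3783 in mid and 1067 to 1724 in proximal libraries. Among the goblet markers Fcgbp averaged 94.4, 144 and 241 FPKM in distal, mid and proximal libraries, while each of the others was highest in mid libraries. The part of these cell types in the responses of the 6 genes was not tested. The 5 epithelial markers summed to 5311 to 7026 FPKM in differentiation and 2087 to 4743 in control libraries. Fibroblast, endothelial, immune and neural or glial markers each summed to at most 0.684 FPKM in any library, and the 4 tuft markers to at most 0.272. The 6 enteroendocrine markers summed to 36.8 to 74.2 FPKM in distal, 71.7 to 116 in mid and 12.7 to 17.6 in proximal differentiation libraries. In control medium these sums were 5.155 to 17.1 FPKM in distal, 16.2 to 28.6 in mid and 0.879 to 3.35 in proximal libraries. Markers of Paneth cells and small-intestinal enterocytes summed to 8.24 to 16.1 FPKM in distal, 2.04 to 6.19 in mid and 0.528 to 1.19 in proximal differentiation libraries, against 2.997 to 17.6 FPKM in distal, 4.10 to 11.3 in mid and 0.183 to 0.482 in proximal control libraries; Apoa4 and Lyz1 made up most of these sums, and Defa24 and Defa30 were at 0 throughout. The 2 cycling markers summed to 1.66 to 7.52 FPKM in distal, 3.21 to 5.93 in mid and 2.10 to 25.5 in proximal differentiation libraries. Their control sums were 37.2 to 76.5 FPKM in distal, 63.2 to 79.1 in mid and 16.3 to 39.6 in proximal libraries. The media thus overlapped in proximal organoids alone. Depth was 12827751 to 19938198 recovered reads in differentiation and 13090322 to 18504587 in control libraries, and proximal differentiation replicate 1 stood nearer the control libraries on the first principal component than any other differentiation library.

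Genes around the pathway were counted from lists. No other guanylyl cyclase or natriuretic peptide gene reached the level for testing: 0 of 14 passed, and their summed level was 0.0141 to 0.430 FPKM in differentiation and 0.0285 to 0.376 FPKM in control libraries. Nppa, Gucy1a1, Gucy1b1, Gucy2d and Gucy2f were listed at 0 in all 18 libraries. Gucy2c was thus the one guanylyl cyclase gene, among those listed, that reached the level for testing.

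Of 12 other phosphodiesterases that act on cGMP, Pde9a and Pde3a passed the filter. Both were called higher in distal and mid organoids and Pde9a alone in proximal organoids. Among all tested genes 31.6% were called higher in distal, 31.5% in mid and 27.6% in proximal organoids. The list median was 1.47 in distal, 1.26 in mid and 0.97 in proximal organoids, beside medians of 0.00, 0.00 and -0.01 over all genes. Pde9a, selective for cGMP, averaged 46.8 ± 8.41 FPKM in differentiation and 17.6 ± 19.1 FPKM in control medium in distal organoids, 53.4 ± 7.99 and 19.98 ± 10.3 FPKM in mid, and 29.3 ± 5.48 and 7.26 ± 0.560 FPKM in proximal organoids (SD, n = 3). Scaled to summed reads, its mid call was lost (adjusted p = 0.0594). Pde3a, which cGMP inhibits, averaged 6.02 ± 0.858 FPKM in differentiation and 2.23 ± 0.0808 FPKM in control medium in distal organoids and 7.15 ± 0.663 and 2.98 ± 0.306 FPKM in mid organoids, but 0.0833 ± 0.0833 and 0.0178 ± 0.0177 FPKM in proximal organoids. Its change in response, distal minus proximal, was 1.03 ± 0.15 (adjusted p = 0.000687); with a pseudocount of 0.1 it was 0.84 (adjusted p = 0.209), so the call rests on how values near 0 are treated.

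Among 16 kinase partners, transporters and scaffolds on which the pathway acts, 13 were tested. In distal organoids 6 rose and 5 fell, in mid 6 rose and 6 fell, and in proximal 7 rose and 5 fell. The shares of all tested genes that rose and fell were 31.6% and 31.3% in distal organoids. They were 31.5% and 32.0% in mid, and 27.6% and 26.2% in proximal organoids. List medians were -0.14, -0.23 and 0.46, beside 0.00, 0.00 and -0.01 over all genes. Absorptive exchangers were among those that rose. Slc9a3, the sodium/proton exchanger that cGMP inhibits, averaged 31.4 ± 10.5 FPKM in differentiation and 0.888 ± 1.09 FPKM in control medium in distal organoids, 116 ± 12.7 and 1.87 ± 0.691 FPKM in mid, and 4.08 ± 1.56 and 0.119 ± 0.0833 FPKM in proximal organoids (SD, n = 3). Its response was 4.20 ± 0.33 in distal, 5.37 ± 0.33 in mid and 2.14 ± 0.33 in proximal organoids, and distal minus proximal was 2.06 ± 0.46 (adjusted p = 0.0124). With a pseudocount of 0.1 that change was 1.26 (adjusted p = 0.391). Slc26a3, the apical chloride/bicarbonate exchanger, rose by 6.08 ± 0.63 in distal, 6.30 ± 0.63 in mid and 3.85 ± 0.63 in proximal organoids. Slc9a2, another sodium/proton exchanger, and Pdzd3, a scaffold that binds Gucy2c, also rose in all 3 regions, by 3.48 and 3.57 in distal, 3.16 and 3.39 in mid, and 2.41 and 2.62 in proximal organoids (adjusted p at most 1.21e-05).

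Cftr and 3 genes that serve chloride secretion fell in every region. Cftr, the chloride channel that Prkg2 phosphorylates, averaged 0.777 ± 0.877 FPKM in differentiation and 3.80 ± 2.10 FPKM in control medium in distal organoids, 2.08 ± 0.651 and 6.09 ± 0.405 FPKM in mid, and 6.43 ± 3.44 and 16.9 ± 1.41 FPKM in proximal organoids (SD, n = 3). Its log2 difference was -1.42 ± 0.39 in distal (adjusted p = 0.00487), -1.23 ± 0.39 in mid (0.0119) and -1.38 ± 0.39 in proximal organoids (0.00736). Slc12a2, which loads chloride across the basolateral membrane, gave -2.57, -2.75 and -2.60 in distal, mid and proximal organoids (adjusted p at most 6.21e-06), and the potassium channel subunit Kcne3 -3.37, -3.54 and -2.51 (adjusted p at most 0.00104). Kcnq1, its channel partner, gave -1.69, -1.99 and -0.88, and its change in response was -0.80 ± 0.19 for distal minus proximal (adjusted p = 0.017). Slc26a6, an anion exchanger, rose in proximal organoids by 1.37 ± 0.14 and gave -0.14 in distal organoids, not called; distal minus proximal was -1.51 ± 0.20 (adjusted p = 0.000261).

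Of 9 other Abcc transporters 6 were tested, and none fell by call. In distal and mid organoids 4 rose, and in proximal organoids 5 rose. Of all tested genes 31.6% rose and 31.3% fell in distal, 31.5% and 32.0% in mid, and 27.6% and 26.2% in proximal organoids. List medians were 0.80 in distal, 0.76 in mid and 0.96 in proximal organoids, beside 0.00, 0.00 and -0.01 over all genes. Abcc3, a basolateral exporter of conjugates, averaged 101 ± 12.3 FPKM in differentiation and 40.2 ± 8.65 FPKM in control medium in distal organoids, 122 ± 9.35 and 33.0 ± 1.11 FPKM in mid, and 185 ± 34.3 and 53.1 ± 5.03 FPKM in proximal organoids. Abcc5, the other family member known to export cGMP, averaged 7.46 ± 1.72 FPKM in differentiation and 6.40 ± 2.07 FPKM in control medium in distal organoids, 6.59 ± 2.02 and 4.58 ± 0.536 FPKM in mid, and 31.7 ± 9.34 and 14.9 ± 2.19 FPKM in proximal organoids; its proximal difference was 1.01 ± 0.26 (adjusted p = 0.00384). Abcc6 and Abcc10 rose in all 3 regions, by 0.85 and 0.74 in distal, 1.06 and 0.88 in mid, and 0.91 and 0.51 in proximal organoids, though scaled to summed reads the proximal value of Abcc10 was 0.27 (adjusted p = 0.125). Abcc2, an apical exporter, also rose in each region, by 0.88 in distal, 0.63 in mid and 1.78 in proximal organoids. It had a distal minus proximal change of -0.90 ± 0.25 (adjusted p = 0.0396), which was lost with a pseudocount of 0.1 (0.0562) and without proximal differentiation replicate 1 (0.058).

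Of 16 intestinal transcription factors 14 were tested. In distal organoids 8 rose and 1 fell, against 31.6% and 31.3% of all tested genes. In mid organoids 6 rose and 2 fell, against 31.5% and 32.0%. In proximal organoids 10 rose and 1 fell, against 27.6% and 26.2%. List medians were 0.68, 0.47 and 1.18 beside 0.00, 0.00 and -0.01 over all genes. Scaled to summed reads, 6 rose and 5 fell in distal, 4 and 5 in mid, and 8 and 3 in proximal organoids, so the balance of directions depends on the scaling. Hnf4a, the close relative of Hnf4g, averaged 399 ± 83.6 FPKM in differentiation and 112 ± 11.02 FPKM in control medium in distal organoids, 356 ± 39.2 and 127 ± 14.8 FPKM in mid, and 315 ± 50.2 and 86.4 ± 28.3 FPKM in proximal organoids, and rose in each. Hnf4g, a nuclear receptor of enterocytes, averaged 9.18 ± 2.81 FPKM in differentiation and 5.06 ± 1.02 FPKM in control medium in distal organoids, 8.09 ± 1.60 and 4.94 ± 0.923 FPKM in mid, and 42.3 ± 6.34 and 6.78 ± 1.46 FPKM in proximal organoids. Its response was 2.48 ± 0.22 in proximal organoids (adjusted p = 5.04e-07), and distal minus proximal was -1.76 ± 0.31 (adjusted p = 0.00218). Scaled to summed reads, its distal and mid calls were lost (adjusted p = 0.247 and 0.406). Klf4, a factor of differentiating epithelium, rose by 2.83 ± 0.25 in distal, 2.98 ± 0.25 in mid and 1.83 ± 0.25 in proximal organoids. Tcf7l2, a nuclear partner of Wnt signals, averaged 15.8 FPKM in differentiation and 3.36 FPKM in control medium in distal organoids, 17.0 and 4.41 FPKM in mid, and 9.33 and 3.08 FPKM in proximal organoids, and rose in each. Atoh1, which drives secretory cell fate, rose by 1.18 ± 0.32 in distal (adjusted p = 0.00445) and by 2.003 ± 0.32 in proximal organoids (adjusted p = 0.000118), and its mid difference was 0.51 ± 0.32 (adjusted p = 0.173). Hes1, a Notch target, had a distal minus proximal change of 0.67 ± 0.18 (adjusted p = 0.0317). Its difference was -0.79 ± 0.13 in proximal (adjusted p = 0.000125) and -0.33 ± 0.13 in mid organoids (adjusted p = 0.032). The distal difference of Hes1 was -0.12 and not called (adjusted p = 0.411). Scaled to summed reads, that difference was -0.57 and called (adjusted p = 0.000266).

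**Figure D4:**
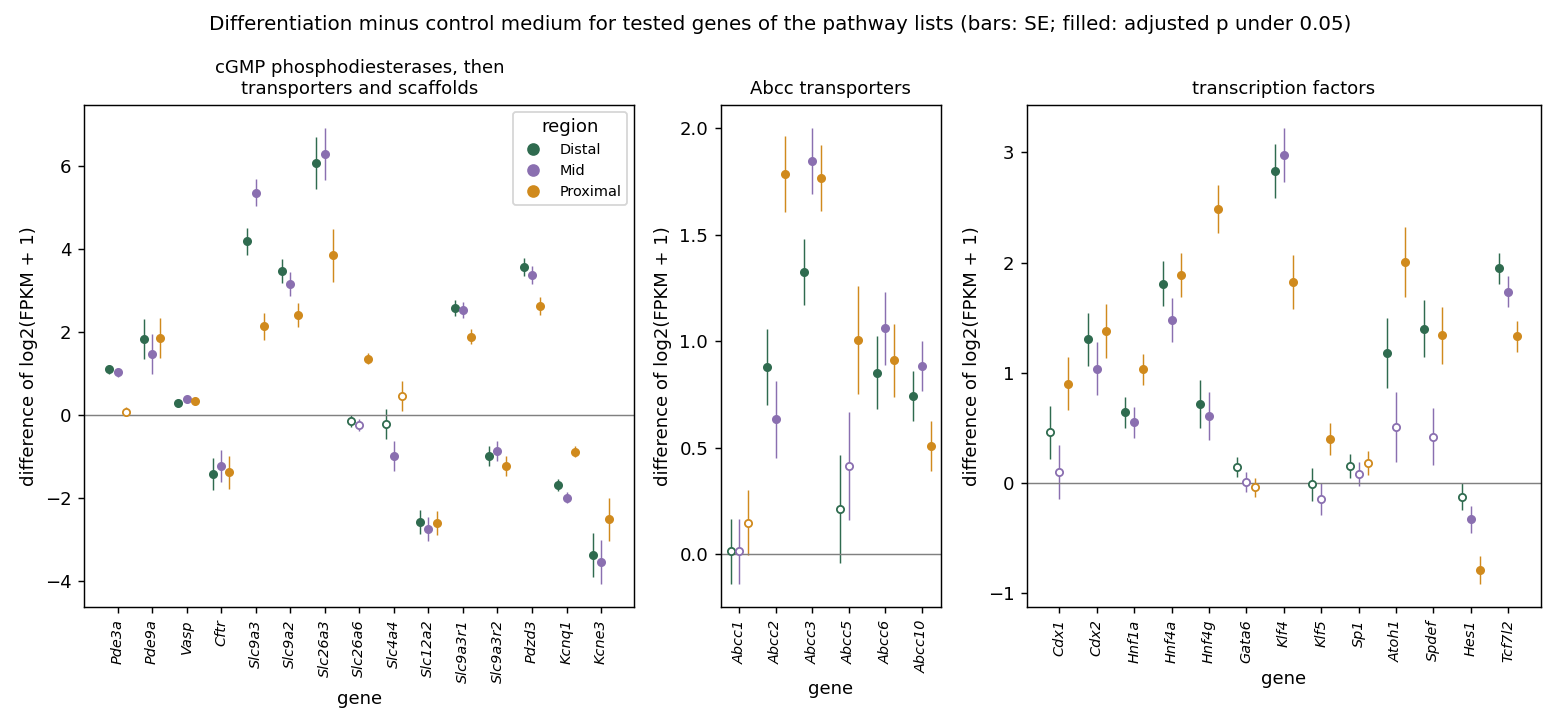
Differentiation minus control medium, as a difference of log2(FPKM + 1), for tested genes of the lists, with SE bars and filled points where the adjusted p is under 0.05; regions are coloured. Exchangers such as Slc26a3 and Slc9a3 lie high above 0, Cftr, Slc12a2, Kcnq1 and Kcne3 lie below it, the Abcc genes called all lie above it, and the response of Hnf4g is largest in proximal organoids.

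The genes most like 3 of the members were found as the 5 protein-coding genes with the smallest root mean square difference over the 18 libraries, on log2(FPKM + 1) with each gene centred on its mean. For Guca2a they were Dpep1, a membrane dipeptidase (0.67), Ankrd40cl (0.82), 1810065E05Rik (0.82), Cyp4f14, a fatty acid hydroxylase (0.88), and Prss30, a serine protease (0.91). Dpep1 averaged 28.5 ± 24.1 FPKM in differentiation and 0.187 ± 0.117 FPKM in control medium in distal organoids, 97.3 ± 19.6 and 1.21 ± 0.786 FPKM in mid, and 76.4 ± 30.1 and 0.599 ± 0.262 FPKM in proximal organoids, so its distal level was the lowest too. Ankrd40cl and 1810065E05Rik were also lowest in distal organoids in both media. Cyp4f14 and Prss30 were not in differentiation medium, averaging 440 and 92.2 FPKM in distal against 297 and 67.9 FPKM in proximal organoids.

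For Guca2b the nearest genes were Tgfbi, an extracellular matrix protein (0.58), Sis, sucrase-isomaltase of the small-intestinal brush border (0.59), Cubn, an endocytic receptor (0.59), Btnl1, a butyrophilin-like protein (0.61), and Defb40, a beta-defensin (0.62). Sis averaged 0.0324 ± 0.00705 FPKM in differentiation and 0.00500 ± 0.00865 FPKM in control medium in distal organoids, 0.236 ± 0.233 and 0.00897 ± 0.00412 FPKM in mid, and 4.73 ± 1.76 and 0.0707 ± 0.0793 FPKM in proximal organoids. All 5 had their highest group mean in proximal differentiation medium (4.54 to 7.89 FPKM), and the next highest mean of any of them was 1.09 FPKM, of Btnl1 in mid differentiation libraries. With a pseudocount of 0.1, which spreads values near 0, 0 of the 5 remained among the nearest, against 2 of 5 for Guca2a and 4 of 5 for Gucy2c.

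For Gucy2c the nearest were Abhd6, a lipase (0.24), Tmem238l (0.27), Galm, galactose mutarotase (0.28), Hadh, a mitochondrial enzyme of fatty acid oxidation (0.30), and Neu1, a lysosomal sialidase (0.30). Abhd6 averaged 37.1 ± 6.64 FPKM in differentiation and 11.6 ± 1.58 FPKM in control medium in distal organoids, 52.7 ± 9.71 and 12.9 ± 1.53 FPKM in mid, and 48.3 ± 6.47 and 12.8 ± 6.03 FPKM in proximal organoids. These distances are descriptions over libraries that share medium and depth, and carry no test.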

How the data were processed

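Per the submitters' processing notes, HISAT2 2.0.5 and featureCounts 1.5.0-p3 were used with mm39; the authors deposited FPKM per gene and library, and the annotation release and strand setting are not given in the sources used here. FPKM times gene length fell on whole reads (tolerance 0.001) in 100.0% of values, which gave the recovered reads. The library size behind the FPKM was 0.757 to 1.04 times the recovered reads in differentiation libraries and 1.145 to 1.20 times in control libraries. The deposited scale thus differs from summed reads by medium. With Python 3.11.15, R 4.3.3 and limma 3.58.1 (empirical Bayes with trend), group means were fitted to log2(FPKM + 1), which understates folds of low genes; 12 residual degrees of freedom remained. Errors are SD over libraries for FPKM and SE for differences. The members, lists and tests were chosen with earlier results of these data known. From each list, up to 3 called genes per direction with the largest change were named in each medium comparison, and up to 3 for distal minus proximal. The fit was tested on simulated data. Alternatives were the pseudocount, the filter, 2 scalings (to summed reads and by median ratio), a replicate block, only the groups compared and each library left out. The median-ratio scaling gave the same factor, 0.987, for all 18 libraries, so it could not test how the results depend on scaling. Strand is unknown, but table genes overlapping Prkg2, Pde5a and Abcc4 reached at most 1.17 FPKM, and Guca2a, Guca2b and Gucy2c had 0 such genes. Replicates numbered alike did not deviate together in every pair of groups (r -0.387 to 0.542), and no pairing was assumed in the main fit. Between the media of the same region r was positive for every replicate number, at 0.0335 to 0.259. A gene of the transcription factor list that the rule names is counted but not reported here by name.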

Additional observations from a re-analysis of the deposited data

Results flagged for a closer look

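The response to differentiation medium differed between regions, by the interaction test, for Guca2b and for Prkg2. For Guca2b the log2 response in distal minus that in proximal organoids was -3.19, and mid minus proximal was -3.54. For Prkg2 distal minus proximal was -2.60 and mid minus proximal -1.52. For Prkg2 the sign of the response differed as well, with -0.92 in distal and 1.68 in proximal organoids, both called. Goblet marker sums in differentiation medium were 1813 to 2395 FPKM in distal, 2264 to 3783 FPKM in mid and 1067 to 1724 FPKM in proximal organoids. The distal and mid sums overlapped, and the proximal sums lay below both. Among the goblet markers Fcgbp was highest in proximal organoids, averaging 94.4, 144 and 241 FPKM in distal, mid and proximal organoids. Colonocyte marker sums overlapped in that medium, at 20800 to 26050 FPKM in distal, 22950 to 26370 in mid and 15230 to 26270 in proximal organoids. Single colonocyte markers differed in direction. Aqp8 averaged 4090 FPKM in distal, 3078 in mid and 0.400 in proximal organoids, and Car1 averaged 12770, 13420 and 18980 FPKM. The part of these cell types in the result was not tested. In all alternatives run, leaving out each library included, these 4 differences kept their direction and an adjusted p under 0.05.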

How the results depend on the processing

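Single-gene results under all alternatives stayed on their side of the threshold, with no called result changing sign, in 1907 of 1944 comparisons. Of the others 33 lost a call, 3 gained one and 1 called result turned, Pde5a in mid organoids scaled to summed reads (-0.0070). Sign changes of uncalled results were not counted, as for Guca2b in mid organoids (-0.18, and 0.0090 without mid differentiation replicate 2). Many comparisons could not change direction. A difference keeps its value when the filter changes or a library of another group is left out, and the F test has no direction. Counts of genes called moved by over 1.5 times as follows; the cause was not tested beyond the change in genes or samples entering each fit. For distal against mid in control medium (42 genes, 1 of the 6) the counts were 6 genes and 0 of the 6 with a filter of FPKM 5, 74 and 0 with no filter, 5 and 0 with only the groups compared, and 20 genes with a pseudocount of 0.1. For distal against mid in differentiation medium (89 genes, 2 of the 6) they were 56 with the filter of FPKM 5, 164 and 1 with no filter, 7 and 0 with only the groups compared, and 59 with the pseudocount. For distal minus mid (4 genes) they were 1, 11, 1 and 0 in the same order. With only the groups compared, distal against proximal gave 795 genes in control medium (1360 otherwise), 2020 in differentiation medium (3856) and 523 for the change in response (1063). Leaving out each library gave 810 to 1553 genes for distal against proximal in control medium, 921 to 2139 and 1 to 2 of the 6 for mid against proximal, and 14 to 69 and 0 to 1 of the 6 for distal against mid. It gave 43 to 129 genes and 1 to 2 of the 6 for distal against mid in differentiation medium, 617 to 1304 for distal minus proximal, 943 to 1834 for mid minus proximal, 1 to 7 for distal minus mid and 689 to 1463 in the F test. With a replicate block, 8250, 8337 and 7128 genes were called for the medium in distal, mid and proximal organoids; it changed no call among the 6, and all 3 numbers correlated above 0.1 in 2 of 15 group pairs. Depth limits Guca2b most, at 23 to 678 reads a library. The permutation test planned for genes under the filter was not run, since all 6 passed.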

Other observations

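The gene nearest to Guca2a on the side away from Guca2b, Foxj3, a forkhead factor, also changed with the medium, but by far less. It averaged 5.68 ± 0.0693 FPKM in differentiation and 4.46 ± 0.0801 FPKM in control medium in distal organoids, 6.54 ± 0.854 and 4.51 ± 0.309 FPKM in mid, and 7.74 ± 1.004 and 4.59 ± 0.0596 FPKM in proximal organoids (SD, n = 3). The log2 difference of Foxj3 was 0.29 ± 0.10 in distal (limma, adjusted p = 0.0178), 0.45 ± 0.10 in mid (0.00104) and 0.64 ± 0.10 in proximal organoids (9.67e-05), and distal minus proximal was -0.35 ± 0.14 (adjusted p = 0.149). Hivep3, the nearest gene beyond Guca2b, averaged at most 0.249 FPKM in any group. Within 100 kb of the ligand genes the table lists 4 other genes.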
